A study of Mus musculus with 6 samples.

Results

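The genes described here are 10 enzymes that make serine and pass its carbon units to folate, chosen by symbol in a deposited count table of 22740 protein-coding genes. All 10 symbols matched 1 row each. They are the serine synthesis enzymes Phgdh, Psat1 and Psph, the cytosolic folate enzymes Shmt1 and Mthfd1, and the mitochondrial folate enzymes Shmt2, Mthfd1l, Mthfd2, Mthfd2l and Aldh1l2. RNA was sequenced from B16, a pigmented melanoma line of the mouse, named B16-F10 in the text for the series and labelled BRAFV600E-negative in all 6 samples. The cells had been kept for 3 days with the vehicle DMSO (3 samples) or with 1 uM CX-5461 (3 samples), a small-molecule inhibitor of RNA polymerase I, which transcribes the ribosomal RNA genes. No label says whether the 3 samples of a group were separate cultures, so the p-values measure only the spread between these samples, which may be technical. In bulk RNA a smaller share of expressing cells and less RNA per cell cannot be told apart.

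Serine is built from the glycolytic intermediate 3-phosphoglycerate by the dehydrogenase PHGDH, the aminotransferase PSAT1 and the phosphatase PSPH. The hydroxymethyltransferases SHMT1, in the cytosol, and SHMT2, in mitochondria, then split serine into glycine and a carbon unit carried by tetrahydrofolate. In many proliferating cells the mitochondrial arm oxidises this unit through MTHFD2 or MTHFD2L and releases it as formate through MTHFD1L, and the cytosolic enzyme MTHFD1 takes the formate up again for purine and thymidylate synthesis. ALDH1L2 burns the formyl unit to CO2 inside mitochondria, and several genes of the pathway are known targets of the stress transcription factor ATF4.

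The libraries held 17573990 to 20198979 counts with DMSO and 17877481 to 22908309 with CX-5461, and CX-5461 replicate 2 was the library least like its group, with chi-square statistics over genes, divided by their degrees of freedom, of 9.39 and 7.64 against replicates 1 and 3. Those replicates gave 5.65 between them, and pairs of DMSO libraries gave 1.57 to 2.54. The summed level of the 7 melanocyte lineage markers was 22070 to 22919 CPM with DMSO and 28243 to 30545 CPM with CX-5461. By these levels the lineage of the line was present in both groups. All 7 were called higher with CX-5461, as were 37.2% of all tested genes. Of 12 markers of other lineages, 3 had enough counts to be tested. Cd68 was at 10.6 and 12.3 CPM, and Col1a1 and Pdgfra were at 6.93 and 5.80 CPM with DMSO and at 2.81 and 4.50 CPM with CX-5461, whereas Cd3e, Cdh5 and Krt5 had no count in any library. The part of these markers in the results was not tested.

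With CX-5461 the serine synthesis genes and the most abundant mitochondrial folate genes were lower, and the cytosolic folate genes were higher. Of the 9 members with at least 10 counts summed over each group, 6 fell and 3 rose at an adjusted p below 0.05 (edgeR quasi-likelihood test, Benjamini-Hochberg adjustment over 12198 genes). Of all tested genes 36.5% were called lower and 37.2% higher, 73.7% in all, so a call by itself does not set these genes apart. For the 9 members the median log2 change was -0.24, against -0.005 for all tested genes. The tenth, Mthfd2l, passed the filter on low counts only through its CX-5461 libraries and is described apart. For each of the 9 the 3 libraries of one group lay beyond those of the other, as they did for 76.2% of all tested genes. Their 9 calls were also made without CX-5461 replicate 2.

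**Figure D1:**
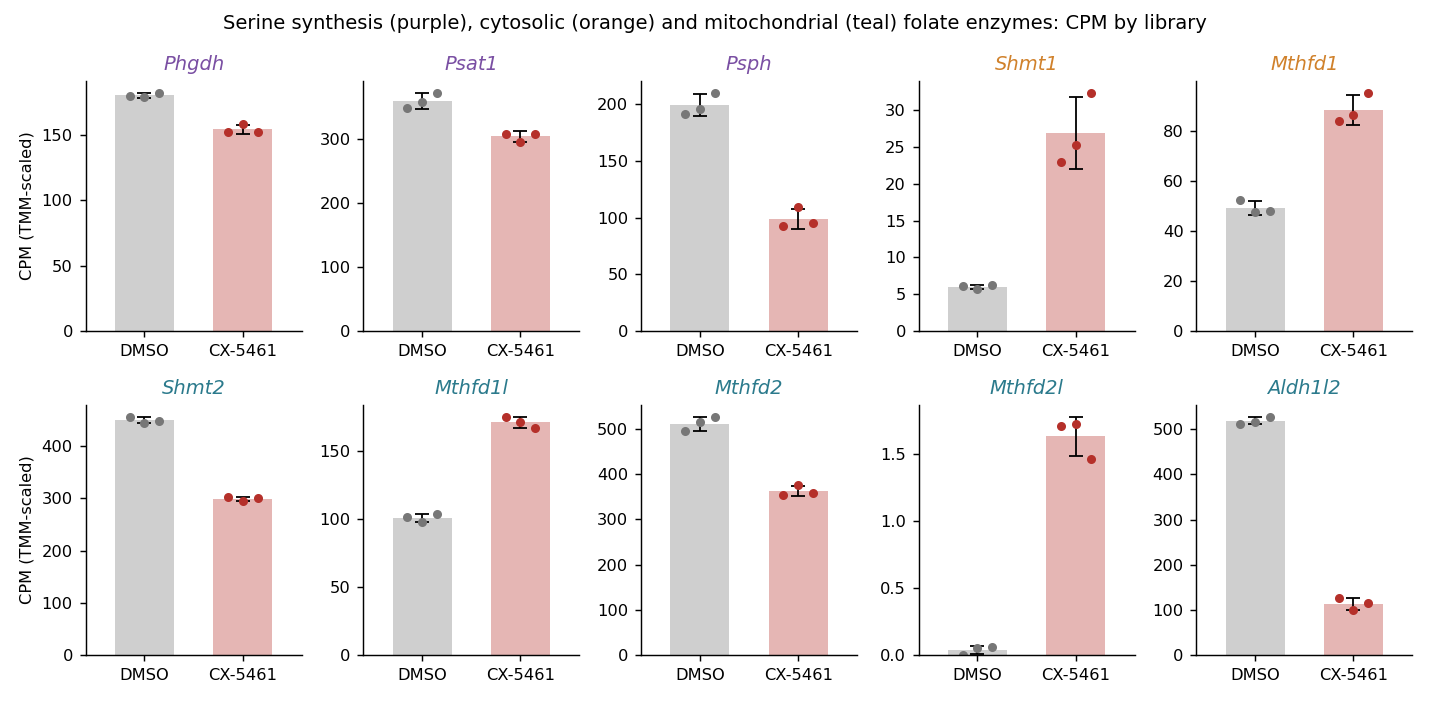
Each panel plots 1 enzyme in CPM (counts scaled to library totals and TMM factors) for the 3 DMSO and 3 CX-5461 libraries, with points for libraries, bars for the mean and error bars for the SD. The CX-5461 libraries are lower for the 3 serine synthesis genes, Shmt2, Mthfd2 and Aldh1l2 and higher for Shmt1, Mthfd1 and Mthfd1l, and Mthfd2l, with 2 counts in all with DMSO, is at 1.63 CPM with CX-5461.

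The 3 enzymes that make serine fell by unequal amounts. Phgdh (chromosome 3, 98313170 to 98339990, GRCm38), which commits 3-phosphoglycerate to the pathway, was at 179.7, 179.0 and 182.2 CPM in the DMSO libraries and at 152.0, 158.2 and 152.5 CPM in the CX-5461 libraries. All CX-5461 values lay below all DMSO values, and the fall was small, with a log2 change, taken as CX-5461 minus DMSO throughout, of -0.23 ± 0.04 (SE, n = 3 per group; edgeR adjusted p = 0.0002012). Psat1 (chromosome 19, 15904678 to 15947337), the transaminase, was at 348.3, 357.2 and 371.6 CPM with DMSO and at 308.4, 294.6 and 308.3 CPM with CX-5461, a change of -0.24 ± 0.04 (edgeR adjusted p = 0.0001288). In fold terms Phgdh was 1.17-fold and Psat1 1.18-fold lower, with no overlap between the groups for either gene. Psph (chromosome 5, 129765558 to 129787449), the phosphatase of the last step, was at 191.1, 196.1 and 209.8 CPM with DMSO and at 92.34, 109.2 and 94.96 CPM with CX-5461. It fell 2.02-fold, with a log2 change of -1.01 ± 0.06 (edgeR adjusted p = 7.337e-10), and 4.00% of the tested genes had a lower change.

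The level of Phgdh rests on how reads were assigned, since 14 other annotated genes match at least 75% of its longest transcript at 90% identity or more, all 14 annotated as processed pseudogenes. None of these is in the deposited table, and how multiply mapped reads were treated is not given in the sources used here. Psph shares 452 exonic bases with the opposite-strand gene Cct6a, a chaperonin subunit, which went from 288.5 to 230.8 CPM (log2 change -0.32 ± 0.05, edgeR adjusted p = 2.786e-05). Whether the counting used strand is not given in the sources used here, and the part of the overlap in the value for Psph was not tested.

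The serine hydroxymethyltransferases, which catalyse the same reaction in different compartments, went in opposite directions. The mitochondrial Shmt2 (chromosome 10, 127517123 to 127522444) was at 456.6, 445.0 and 448.7 CPM with DMSO and at 302.6, 294.9 and 299.9 CPM with CX-5461. It fell 1.505-fold (log2 change -0.59 ± 0.04, edgeR adjusted p = 3.085e-09). The cytosolic Shmt1 (chromosome 11, 60788104 to 60811718) was at 6.06, 5.74 and 6.31 CPM with DMSO and at 22.9, 25.3 and 32.3 CPM with CX-5461. It rose 4.44-fold (log2 change 2.15 ± 0.13, edgeR adjusted p = 7.036e-10), and 97.0% of the tested genes had a lower change. The spread of Shmt1 was wider with CX-5461 (SD 4.89 CPM) than with DMSO (SD 0.284 CPM), with replicate 3 the highest. Shmt1 shares 184 exonic bases with the opposite-strand gene Smcr8, which went the other way, from 168.7 to 115.0 CPM. With DMSO Smcr8 was at 20.9 CPM per kb of exonic length and Shmt1 at 1.55, so reads from the shared bases could weigh on the low DMSO value of Shmt1. As the strand setting is not given, the part of the overlap in the level, the rise and the ratios of Shmt1 was not tested.

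Within each library the log2 ratio of Shmt2 to Shmt1 was 6.21, 6.25 and 6.13 with DMSO and 3.72, 3.54 and 3.21 with CX-5461. The difference between the group means was -2.71. An exact permutation test over the 6 libraries, two-sided, gave p = 0.1, which is the smallest p that 3 against 3 allows. After adjustment over the 3 ratios tested, among them that of Mthfd2 to Mthfd2l, the permutation p was 0.15. Per kb of exonic length, Shmt1 made up 1.06% ± 0.05 of the summed Shmt1 and Shmt2 level with DMSO and 6.69% ± 1.14 with CX-5461 (SD, n = 3). Shmt2 therefore remained by far the more abundant transcript of the pair in every library.

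The sequence before the RefSeq start site is shown for both pairs of related enzymes, 250 bases each from build GRCm38.p6, because the members of the Shmt pair moved in opposite directions and those of the pair described next in the same one. Capitals mark GC boxes (GGGCGG) and CCAAT boxes (CCAAT), on either strand, where adjoining matches run together. The windows are chr11:60811266-60811515, minus strand for Shmt1, chr10:127522445-127522694, minus strand for Shmt2, chr12:76254982-76255231, plus strand for Mthfd1 and chr10:3972825-3973074, plus strand for Mthfd1l.
Shmt1: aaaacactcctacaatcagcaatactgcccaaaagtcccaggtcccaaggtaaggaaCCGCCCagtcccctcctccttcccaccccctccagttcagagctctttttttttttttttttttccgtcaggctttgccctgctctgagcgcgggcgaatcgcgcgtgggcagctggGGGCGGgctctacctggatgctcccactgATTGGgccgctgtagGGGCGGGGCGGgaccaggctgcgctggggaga
Shmt2: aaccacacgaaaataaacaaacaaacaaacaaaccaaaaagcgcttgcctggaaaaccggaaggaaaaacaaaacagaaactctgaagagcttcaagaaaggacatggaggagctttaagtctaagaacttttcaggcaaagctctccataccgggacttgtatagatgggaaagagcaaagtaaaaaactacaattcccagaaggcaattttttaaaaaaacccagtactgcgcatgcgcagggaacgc
Mthfd1: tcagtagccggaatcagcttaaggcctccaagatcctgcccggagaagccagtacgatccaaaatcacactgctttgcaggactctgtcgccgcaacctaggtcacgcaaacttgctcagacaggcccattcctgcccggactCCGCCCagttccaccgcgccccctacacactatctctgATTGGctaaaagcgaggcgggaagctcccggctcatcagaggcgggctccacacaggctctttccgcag
Mthfd1l: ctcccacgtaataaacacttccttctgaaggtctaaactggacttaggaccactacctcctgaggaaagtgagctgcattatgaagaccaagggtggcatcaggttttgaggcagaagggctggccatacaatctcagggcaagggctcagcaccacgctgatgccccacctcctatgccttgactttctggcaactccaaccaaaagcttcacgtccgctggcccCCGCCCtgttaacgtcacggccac

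The Shmt1 window holds 4 GC boxes and 1 CCAAT box and is 60.0% G and C. The Shmt2 window holds neither and is 40.8% G and C, and Mthfd1 has 1 of each at 59.2%. Mthfd1l, which also rose, has 1 GC box and no CCAAT box at 54.4%. Among the members that fell, Psph has 3 GC boxes and 2 CCAAT boxes before its start, at 67.2%. Phgdh (44%) and Mthfd2 (52.4%) have CCAAT boxes and no GC box there. Psat1 has CCAAT boxes but no GC box before its start 1 (59.6%), and 1 GC box but no CCAAT box before its start 2 (65.6%). A link between these letters and the direction of change was not tested. Among the 9 members with an entry, windows that also take in 50 bases after the start had a GC box in 6 and a CCAAT box in 6, where 38.2% and 41.1% of 27025 genes did. The core of the C/EBP-ATF element, TGATGNAA, and the E-box CACGTG were in none of these windows on either strand, and 4.51% and 8.09% of all genes had them. An E2F site written as TTTNNCGC lay in the windows of 2 members, Psph and Shmt2, and in 5.93% of all genes. The motifs other than TGATGNAA and CACGTG were chosen after seeing the data, and a match describes these letters only. Aldh1l2 was not among the entries.

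Without an offset for gene span, Mthfd1 and Mthfd1l rose to a like extent in different compartments. Mthfd1 (chromosome 12, 76255298 to 76319803), the cytosolic enzyme with dehydrogenase, cyclohydrolase and synthetase activities, was at 52.2, 47.4 and 48.0 CPM with DMSO and at 83.9, 86.2 and 95.2 CPM with CX-5461. It rose 1.80-fold (log2 change 0.85 ± 0.06, edgeR adjusted p = 5.429e-09). Mthfd1l (chromosome 10, 3973118 to 4167081), the mitochondrial formyltetrahydrofolate synthetase, was at 101.0, 97.7 and 103.2 CPM with DMSO and at 175.0, 170.9 and 167.0 CPM with CX-5461. It rose 1.70-fold (log2 change 0.77 ± 0.05, edgeR adjusted p = 6.344e-10), against the direction of the other abundant mitochondrial enzymes. Mthfd1l spans 193964 bases of the genome, the longest span of the 10, and with an offset for gene span its change was 0.09 and did not pass (edgeR adjusted p = 0.1033, the highest over the 20 alternatives, of which DESeq2 gave the lowest at 4.97e-42). The same offset left Mthfd1 called, at a change of at least 0.77 over all 20 alternatives. The ratio that follows carries no such offset. The log2 ratio of Mthfd1l to Mthfd1 was 0.95, 1.04 and 1.10 with DMSO and 1.06, 0.99 and 0.81 with CX-5461, so the groups overlapped (difference -0.08, exact permutation p = 0.5, two-sided).

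The mitochondrial dehydrogenase and cyclohydrolase genes stood at opposite ends of the range of levels. Mthfd2 (chromosome 6, 83305691 to 83325908), known for high expression in embryos and tumours, was at 494.9, 514.5 and 525.8 CPM with DMSO and at 354.9, 375.4 and 358.1 CPM with CX-5461. It fell 1.41-fold (log2 change -0.50 ± 0.04, edgeR adjusted p = 5.496e-08). Mthfd2l (chromosome 5, 90931117 to 91021368), its relative, had 0, 1 and 1 counts in the DMSO libraries and 38, 30 and 29 counts in the CX-5461 libraries. The summed 97 counts against 2 gave a ratio of 46.5 after scaling for depth, with an exact 95% interval of 12.5 to 389.5 that covers counting error only. The interval pools the 3 libraries of each group, leaves out the spread between them, and is not used to judge the change. Mthfd2l passed the filter on low counts only through its CX-5461 libraries, so no p-value is given for its change or for its ratio to Mthfd2. With CX-5461 Mthfd2l was at 1.63 ± 0.146 CPM (SD, n = 3), or 0.236% ± 0.019 of the summed Mthfd2 and Mthfd2l level per kb.

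Aldh1l2 (chromosome 10, 83487450 to 83534140), the mitochondrial formyltetrahydrofolate dehydrogenase, had the largest fall of the 10. It was at 512.7, 515.8 and 527.9 CPM in the DMSO libraries and at 126.2, 99.4 and 115.3 CPM in the CX-5461 libraries. The fall was 4.56-fold (log2 change -2.19 ± 0.07, edgeR adjusted p = 2.89e-13), and 0.369% of the tested genes had a lower change. Aldh1l2 shares 1056 of its 7503 exonic bases with the opposite-strand gene D10Wsu102e, which was at 44.3 ± 3.18 CPM with DMSO and at 43.9 ± 2.50 CPM with CX-5461. Aldh1l1, the cytosolic counterpart and not a member, was at 8.96, 8.25 and 8.93 CPM with DMSO and at 30.8, 34.6 and 29.1 CPM with CX-5461. It rose 3.61-fold (log2 change 1.85 ± 0.09, edgeR adjusted p = 6.862e-11), so in this pair, as in the Shmt pair, the mitochondrial gene fell and the cytosolic gene rose.

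**Figure D2:**
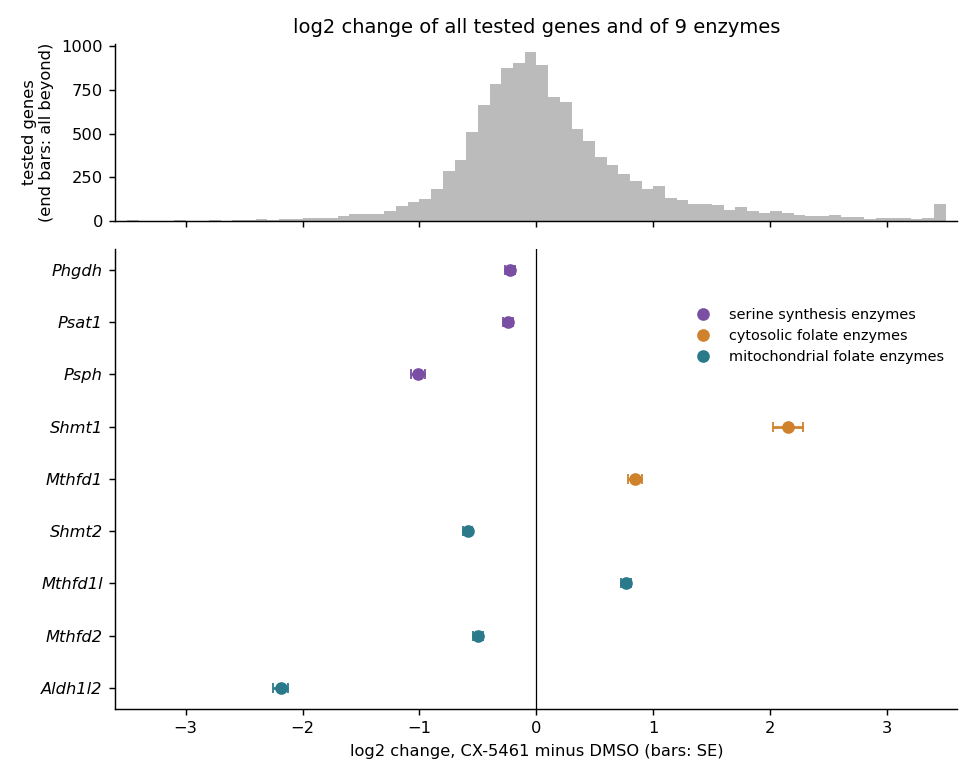
The upper panel is a histogram of the log2 changes (CX-5461 minus DMSO) of the 12198 tested genes, with all values beyond the axis in the end bars, and the lower panel gives the change of 9 enzymes with bars for the SE. Both cytosolic folate genes lie right of 0, all 3 serine synthesis genes lie left of 0, and of the 4 mitochondrial folate genes only Mthfd1l lies right of 0, and its call is lost with an offset for gene span.

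Taken by compartment, both cytosolic folate genes rose, and of the 4 mitochondrial genes other than Mthfd2l 3 fell and 1, Mthfd1l, rose. The rise of Mthfd1l did not pass with the gene-span offset. Of all tested genes 36.5% were called lower and 37.2% higher, so counts over so few genes do not set a compartment apart. The mean log2 CPM of the mitochondrial genes without Mthfd2l, less that of the cytosolic genes, was 4.20, 4.30 and 4.26 with DMSO and 2.33, 2.15 and 1.94 with CX-5461. The groups did not overlap, but neither did they for any gene of this score or for 76.2% of all tested genes. Largest among its genes were the changes of Shmt1 (2.15) and Aldh1l2 (-2.19). The low DMSO value of Shmt1 could hold reads from the bases shared with Smcr8, as said above. The difference of means was -2.11. With Mthfd2l included it was -1.25, a value that depends on the prior count given to its near-empty DMSO libraries. No test was made of this mean, which is a score over several chosen genes. Summed per kb of exonic length, the mitochondrial genes were at 383.4 ± 4.70 CPM per kb with DMSO and at 254.2 ± 1.66 with CX-5461, and the cytosolic genes at 12.6 ± 0.61 and 26.8 ± 2.6 (SD, n = 3). The cytosolic share of the 7 folate enzymes was 3.19% ± 0.17 with DMSO and 9.54% ± 0.89 with CX-5461, so mitochondrial transcripts were the bulk of the pool in all 6 libraries. The share taken by Aldh1l2 in the mitochondrial sum went from 18.0% ± 0.06 to 5.96% ± 0.70.

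**Figure D3:**
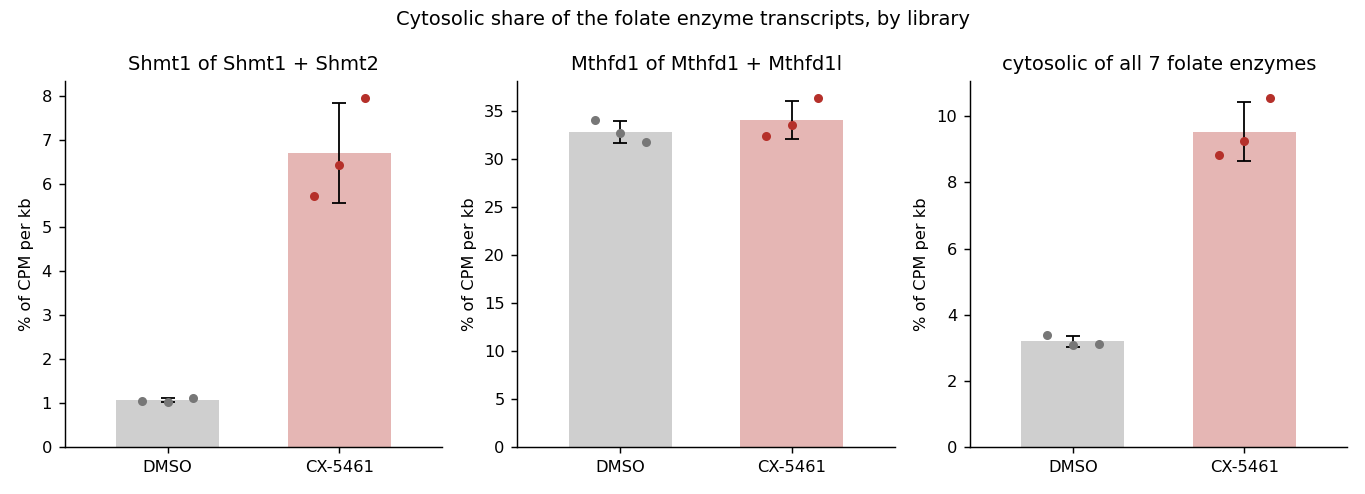
The 3 panels plot the cytosolic share of transcript levels per kb of exonic length for the Shmt pair, the Mthfd1 and Mthfd1l pair and all 7 folate enzymes, in percent, with points for libraries, bars for the mean and error bars for the SD. The share of Shmt1 goes from 1.06% to 6.69%, that of all cytosolic enzymes from 3.19% to 9.54%, and the libraries of the Mthfd1 pair overlap at means of 32.8% and 34.0%. The shares carry no offset for gene span.

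The order of levels per kb changed in its middle. With DMSO it ran from Mthfd2 (146.8 ± 4.48 CPM per kb) and Shmt2 (144.8 ± 1.91), whose libraries overlapped, through Psat1, Phgdh, Aldh1l2 (69.1 ± 1.07), Psph (46.0 ± 2.25), Mthfd1l (22.7 ± 0.63) and Mthfd1 (11.1 ± 0.59) to Shmt1 (1.55 ± 0.07) and Mthfd2l. With CX-5461 Aldh1l2 (15.1 ± 1.79 CPM per kb) came after Mthfd1l (38.5 ± 0.91), Psph (22.8 ± 2.10) and Mthfd1 (19.9 ± 1.34), and the libraries of Psph and Mthfd1 overlapped. With the length of the longest transcript in its place, chosen after seeing the data, the order of the genes was the same in both groups, but neither of these pairs of neighbours overlapped. Together the 10 genes took 0.244% ± 0.003 of all counts with DMSO and 0.158% ± 0.001 with CX-5461.

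The genes around the pathway went in both directions. As a measure for each count of called genes below, 36.5% of all tested genes were called lower and 37.2% higher. Of 4 tested folate-interconverting enzymes besides the members, 3 rose and 1 fell, with Aldh1l1 above and Mthfs, which returns a storage form of folate to the active pool, at 2.97 and 5.49 CPM (log2 change 0.89 ± 0.18, edgeR adjusted p = 0.0003545). The rise of Mthfs did not pass with the gene-span offset (0.33, edgeR adjusted p = 0.121, with at least 2.11e-06 over the 20 alternatives). Of 5 tested genes of folate uptake and storage, 1 rose and 3 fell, with a median log2 change of -0.43. Slc19a1, the reduced folate carrier, fell 1.75-fold, from 34.5 ± 0.815 to 19.7 ± 1.41 CPM (edgeR adjusted p = 6.529e-08). Fpgs, which adds the glutamate tail that holds folate in the cell, was at 41.0, 36.9 and 40.8 CPM with DMSO and at 27.8, 26.5 and 24.9 CPM with CX-5461 (log2 change -0.58 ± 0.07, edgeR adjusted p = 1.914e-06). The rise, of Slc46a1, was small (log2 change 0.26 ± 0.10, edgeR adjusted p = 0.03489, with no group overlap), was lost without DMSO replicate 2, DMSO replicate 3 or CX-5461 replicate 3, and is named after its values were seen. Slc25a32, which carries folate into mitochondria, was at 22.5 ± 0.137 and 21.0 ± 0.660 CPM (edgeR adjusted p = 0.2259). Its change of -0.10 took the opposite sign with a GC offset (0.05) and passed with library totals only (-0.17, edgeR adjusted p = 0.04113, with at most 0.9547 over the 20 alternatives).

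Thymidylate and purine synthesis are the main users of folate-bound carbon units. Only Tyms was called higher among the 7 genes of that list, 6 did not pass, and their median log2 change was 0.03. Tyms, thymidylate synthase, rose 1.76-fold, from 14.0, 16.3 and 18.8 CPM to 27.1, 28.9 and 30.7 CPM (edgeR adjusted p = 1.509e-06). With the gene-span offset 4 of these 7 genes were called higher. Of 3 tested genes of the glycine cleavage system none rose and 2 fell, with Dld at -0.41 ± 0.05 and Amt at -0.39 ± 0.13 (edgeR adjusted p = 8.858e-07 and 0.01134). Without DMSO replicate 2 Amt changed by -0.30 and did not pass (edgeR adjusted p = 0.0808, with at least 0.002017 over the 20 alternatives). The decarboxylase of that system, Gldc, had no count in any library.

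Of 8 genes of the methionine cycle and transsulfuration 5 rose and 3 fell, and the enzymes that turn homocysteine and serine into cysteine parted. Cbs, which joins serine to homocysteine, rose 3.07-fold, from 4.32, 3.04 and 3.63 CPM to 10.0, 11.6 and 12.0 CPM (log2 change 1.62 ± 0.14, edgeR adjusted p = 4.419e-08). Cth, which cleaves the product to cysteine, fell 5.22-fold, from 88.5, 82.8 and 87.4 CPM to 17.9, 18.2 and 13.4 CPM (log2 change -2.38 ± 0.09, edgeR adjusted p = 1.952e-12). Of 9 tested genes of serine and glycine transport and serine use 1 rose and 8 fell, with a median of -0.39. For scale, 37.2% of all tested genes were called higher and 36.5% lower. The glycine transporter Slc6a9 fell 3.08-fold and the neutral amino acid transporter Slc1a5 fell 2.92-fold. Of 5 genes of lower glycolysis, which supplies 3-phosphoglycerate, 1 rose, 1 fell and 3 did not pass. Pgk1 changed by -0.36 ± 0.06 and Eno1 by 0.12 ± 0.05 (edgeR adjusted p = 9.137e-05 and 0.02308). The call of Eno1 was lost without any one of the 3 DMSO libraries and without CX-5461 replicate 2 (changes of 0.07 to 0.12). It was also lost with library totals only, with the GC offset and at an adjusted p below 0.01. Over the 20 alternatives its change ran from 0.05 to 0.21. Its adjusted p there, from edgeR, DESeq2 or limma-voom, ran from 0.0002125 to 0.3144.

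**Figure D4:**
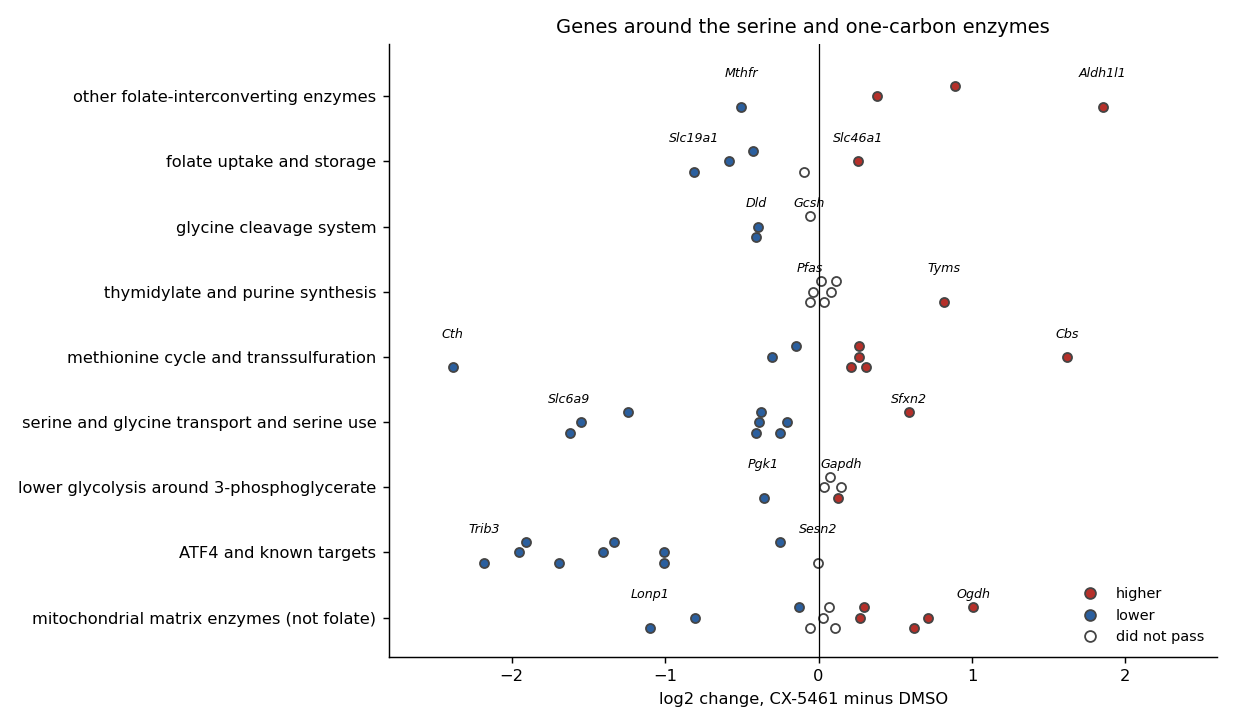
Each point is 1 tested gene of 9 lists around the serine and folate enzymes, placed by its log2 change (CX-5461 minus DMSO), with filled points for called changes, open points for genes that did not pass, and names for the lowest and highest gene of each list. The ATF4 list and the transport list lie mostly left of 0, whereas Aldh1l1, Cbs and Tyms lie right of 0.

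Of 10 genes taken as ATF4 and its known targets outside the pathway, 9 fell, none rose and Sesn2 did not pass, and the median log2 change was -1.37. Of all tested genes 36.5% were called lower and 37.2% higher, and the list was chosen with earlier results of these data known. Atf4 itself was at 1254.6, 1270.7 and 1281.8 CPM with DMSO and at 616.9, 657.2 and 615.9 CPM with CX-5461 (log2 change -1.01 ± 0.04, edgeR adjusted p = 1.327e-11). The pseudokinase gene Trib3 fell 4.53-fold and Chac1, which degrades glutathione, fell 3.88-fold. In log2 terms the list ran from Trib3 (-2.18) to Sesn2 (-0.004). Among the members other than Mthfd2l, the falls were those of Aldh1l2 (-2.19), Psph (-1.01), Shmt2 (-0.59), Mthfd2 (-0.50), Psat1 (-0.24) and Phgdh (-0.23). Shmt1, Mthfd1 and Mthfd1l rose. Differences between these genes, and the part of ATF4 in the changes of the members, were not tested. Of 12 mitochondrial matrix enzymes outside folate metabolism, 5 were called higher, 3 lower and 4 neither, around a median log2 change of 0.09. Lonp1, a matrix protease, fell 2.14-fold and Ogdh, of the citric acid cycle, rose 2.01-fold.

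The genes whose log2 CPM, centred over the 6 libraries, lay nearest to that of Mthfd2, the member with the highest mean CPM over all 6 libraries, were Fyttd1, Gpi1 and Mogs, at Euclidean distances of 0.0273, 0.0297 and 0.0428. With DMSO alone Aldh1l2 had the higher mean, at 518.8 against 511.7 CPM. With only 6 libraries in 2 groups, such a distance rests mostly on the size of the change between the groups.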

How the data were processed

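Per the file headers the authors deposited 1 count per gene and library for 22740 protein-coding genes. The counts are whole numbers with column totals that differ, and they were taken as not normalized. Per the submitters' processing notes the builds are GRCm38 and mm10. The aligner, counter, strand setting and treatment of multiply mapped reads are each not given in the sources used here. Groups and replicate numbers came from the sample titles.

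Genes were filtered with filterByExpr (minimum count 10, 12198 genes left) and tested with edgeR 4.0.16 (R 4.3.3) by the quasi-likelihood F test, two-sided, with treatment as the only term and TMM factors. Library totals ran from 17573990 to 22908309, so that 3 counts equalled 0.135 to 0.173 CPM. CPM were scaled by totals and TMM factors, and each standard error is the absolute log2 change over the root of its F statistic. Log2 CPM used a prior count of 2. Exonic lengths, spans, overlaps and coordinates came from the GENCODE annotation of GRCm38, which matched 21919 of the identifiers, and near-identical transcripts from BLAST 2.17.0. Promoter sequences are RefSeq's for GRCm38.p6. The fit was also run on simulated counts with the same spread setting for all genes and libraries. These counts lack the wider spread between the CX-5461 libraries, so they do not check the calls under it.

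The members and lists were chosen with earlier results of these data known. Besides the members, the text names from each list the 2 called genes of largest change whose higher group averaged at least 5 CPM (or, with no call, the gene with most counts), Atf4, Tyms and Slc25a32, and the 3 genes nearest by pattern to Mthfd2. The nearest to Mthfd2l, also part of the rule, are not given, since its log2 CPM depend on the prior count. Of the genes chosen around the pathway, 1 is not reported here and was left out of its list. The motifs TTTNNCGC, GGGCGG and CCAAT, the longest-transcript lengths and the mean without Mthfd2l were added after seeing the data. Alternatives used DESeq2 1.42.0, limma 3.58.1 and other factors, filters, offsets and library sets.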

Additional observations from a re-analysis of the deposited data

How the results depend on the processing

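Over 20 alternatives (RLE, upper-quartile or no scaling factors, no filter or 1 CPM in 3 libraries, DESeq2, limma-voom, a replicate block, offsets for gene span and GC content, the latter also with the block, totals and fit without the mitochondrially encoded and the 50 most highly counted genes, an adjusted p below 0.01, thinning, and each library left out in turn) the 9 enzymes other than Mthfd2l kept their direction and their call, except that Mthfd1l did not pass with the gene-span offset (0.086, edgeR adjusted p = 0.1033). The values showed no pairing of the samples by replicate number. The correlations of deviations between libraries of the same number were 0.04, 0.004 and -0.008, and not every library correlated best with its own number. Such correlations cannot tell whether the samples were paired by design. With the replicate block the edgeR count over all genes was 4537 higher and 4464 lower, against 4538 and 4448, and the same 9 enzymes were called. Lists of few genes moved more. The called rises of folate uptake and storage went from 1 to 0 with DESeq2, library totals only, the GC offset with or without the block and an adjusted p below 0.01, to 2 with no filter on low counts, and to 0 or 1 when 1 library was left out. Those of the methionine cycle went from 5 to 3 with library totals only and an adjusted p below 0.01, and to between 3 and 5 with 1 library left out. Called falls of glycine cleavage went from 2 to 1 at an adjusted p below 0.01, and to 1 or 2 with 1 library left out. The rise in lower glycolysis was 0 with library totals only, the GC offset with or without the block and an adjusted p below 0.01, 3 with the gene-span offset, and 0 or 1 with 1 library left out. With the gene-span offset 4 in place of 1 genes of thymidylate and purine synthesis and 8 in place of 5 matrix enzymes were called higher. Slc25a32 turned to 0.054 with the GC offset and 0.053 with that offset and the block. With a prior count of 0.5 or 5 the difference in the Mthfd2 to Mthfd2l ratio was -5.44 or -3.19 in place of -4.17, and the mitochondrial to cytosolic difference was -1.003 or -1.43 in place of -1.25, because the DMSO libraries held 2 counts of Mthfd2l in all. No group had enough samples to test for a library far from the others.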
